A study of Saccharomyces cerevisiae with 4 samples.

Results

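The genes described here lie within 20 kb of a chromosome end of budding yeast (Saccharomyces cerevisiae), outside chromosome X. A feature of the count table was taken when its start lay in the first 20 kb of its chromosome, or its end within 20 kb of the last annotated base of that chromosome. Chromosome X, the mitochondrial chromosome, small nucleolar RNA genes and 17 named genes, 9 of them COS genes, were left out by the same rule, which used no expression value. This gave 306 of 7126 features, at the 30 ends of 15 chromosomes, 157 on left and 149 on right arms. The members nearest the boundary were SUL1, YHR214W, HXT12 and YMR315W, at 19665, 19785, 19847 and 19953 bases from the end. The first genes outside it were PAD1 at 20081 bases and YDR537C at 20250 bases. Of the members, 234 were found among the RefSeq genes of assembly R64 and 91 overlapped another feature of the table.

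Polyadenylated RNA was sequenced from strain MH1018, which carries ulp1-I615N, and from strain MH1006, which carries wild-type ULP1, with 2 libraries each. ULP1 encodes the protease that matures the small modifier SUMO and removes it from proteins. The strains are MATa and share the markers lys1::kanMX4, trp1-289, ade3-delta, ade2-delta, ura3-52 and a double mutant allele of leu2, and both grew in rich glucose medium (YPD) at 30 °C to mid-log phase. Each group is 1 strain, and no label says whether its libraries are of separate cultures. The p-values therefore hold only against the spread of these 4 libraries, which can be technical. Total counts were 13244131 and 26723470 in the mutant libraries and 15448419 and 19346393 in the wild-type libraries, and a count of 0 allows up to 0.227 and 0.112 CPM in the mutant libraries and up to 0.194 and 0.155 CPM in the wild-type libraries (3 counts of the total, counting error only). In the mutant libraries chromosome X was raised, with 336 of its 373 tested genes higher and a median log2 fold change of 0.73, so in this comparison the ulp1 allele and the raised chromosome X cannot be told apart. In bulk libraries, a change in every cell and a change in a fraction of the cells cannot be told apart either.

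Subtelomeres are the gene-poor stretches between the telomere repeats and the essential interior of a chromosome. In yeast they carry repeated Y' elements, which encode helicase-like proteins, and families of genes for sugar, vitamin, metal and stress metabolism whose copies at different ends are nearly identical. Near the ends, and at the silent mating type locus HML, the Sir proteins recruited by Rap1 remove acetyl groups from histones and repress transcription, and SUMO is known to act on several telomere proteins.

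Changes at the ends ran in both directions. In ulp1-I615N 6 of 9 redox and small-molecule enzyme genes, 4 of 6 tested vitamin B1 and B6 genes, 3 of 7 tested maltose and isomaltose genes, 3 of 6 tested hexose transporter and polyol genes and, at low counts, 3 of 4 tested Hsp31-like and enolase-related genes were higher. HSP33, in the last of these lists, passed the filter on low counts only through the mutant libraries, where it is high. All 3 genes of the sulfur compound list were lower, while the sulfate permease gene SUL1, in another list, was not called (log2 fold change 0.22). Of 25 tested Y' element genes 8 were lower, and these calls dropped to 4 with library totals as the only scaling and were also fewer without some single libraries. Of the 306 members, 194 passed the filter on low counts and were tested, 64 others had some counts and 48 had none in any library. Among the 194, 51 were higher (26.3%) and 27 were lower (13.9%) with a threshold of 0.05 on the adjusted p (edgeR's quasi-likelihood F test, adjusted by Benjamini-Hochberg over all genes), and 116 were not called. Over all 6139 genes tested, 26.4% were higher and 24.3% lower, so the share of higher members was near the background, and the share of lower members was below it. That background includes chromosome X, where 336 of 373 tested genes were higher, and over the other nuclear positions off chromosome X 22.1% were higher and 26.2% lower. Differences of at least 2-fold were called for 16 members higher and 3 lower, that is 8.25% and 1.55% of those tested. The shares were 5.18% and 0.700% of all genes and 3.73% and 0.718% at the other nuclear positions off chromosome X. Of the 16 rises, 8 had a mean under 50 counts, and some of these passed the filter only through the mutant libraries. Rises of at least 2-fold were 5.48% of tested members at 50 counts or more and 16.7% below, against 3.42% and 8.55% at those other positions. Falls of at least 2-fold were 0.685% and 4.17%, against 0.631% and 2.06%. The median log2 fold change was 0.083 over tested members, 0.010 over all tested genes and -0.016 over tested genes of the other nuclear positions off chromosome X. Against the wild-type mean, it was 0.086 in mutant replicate 1 and 0.066 in mutant replicate 2. Of the called differences, 19 of the 51 rises and 20 of the 27 falls were under 1.5-fold. Scaling by library totals alone shifted the all-gene median by 0.13 (log2), and 35.7% of all genes were then higher and 13.9% lower. Under it 65 members were higher and 13 lower, so the number of calls in each direction depends on the scaling. Of the 46 genes that the naming rule gives, only ADH6, not called, changed sign under it. Both mutant libraries lay above both wild-type libraries for 79 of the 194 members, against 38.1% of all genes, and below them for 48, against 36.0%; taken in either direction, 65.5% of the members and 74.1% of all genes had groups without overlap.

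The counted levels of subtelomeric genes were low. The median per-length level over all members was 3.59 CPM per kb in ulp1-I615N and 2.86 CPM per kb in wild type, against 37.1 and 36.0 CPM per kb at the other nuclear positions off chromosome X. Together the members held 0.700% and 0.686% of the counts in the mutant libraries and 0.624% and 0.615% in the wild-type libraries. Counts were low enough to limit the test: of 146 members with a mean of at least 50 counts 43 were higher and 24 lower, and of 48 tested members below that mean 8 were higher and 3 lower. At 50 counts or more this is 29.5% higher and 16.4% lower for members, against 22.9% and 27.7% at the other nuclear positions off chromosome X. Below it the shares are 16.7% and 6.25% for members, against 9.44% and 3.54% at those other positions. Some members with such low counts passed the filter only through the group in which they were higher. Repeated sequence was a second limit, because the counting left out fragments with more than 1 place in the genome. Of 104 tested members in which at least 90% of all 50-base windows occur once in the genome, 33 were higher and 15 lower with a median of 0.14, a split chosen after the data were seen. The levels differed over the same split. Over all 122 members on its upper side, the median level was 15.173 CPM per kb in ulp1-I615N and 11.995 CPM per kb in wild type. Over the 184 members below 90% it was 0.941 and 0.614 CPM per kb. The low median over all members is therefore not a measure of expression alone.

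**Figure D1:**
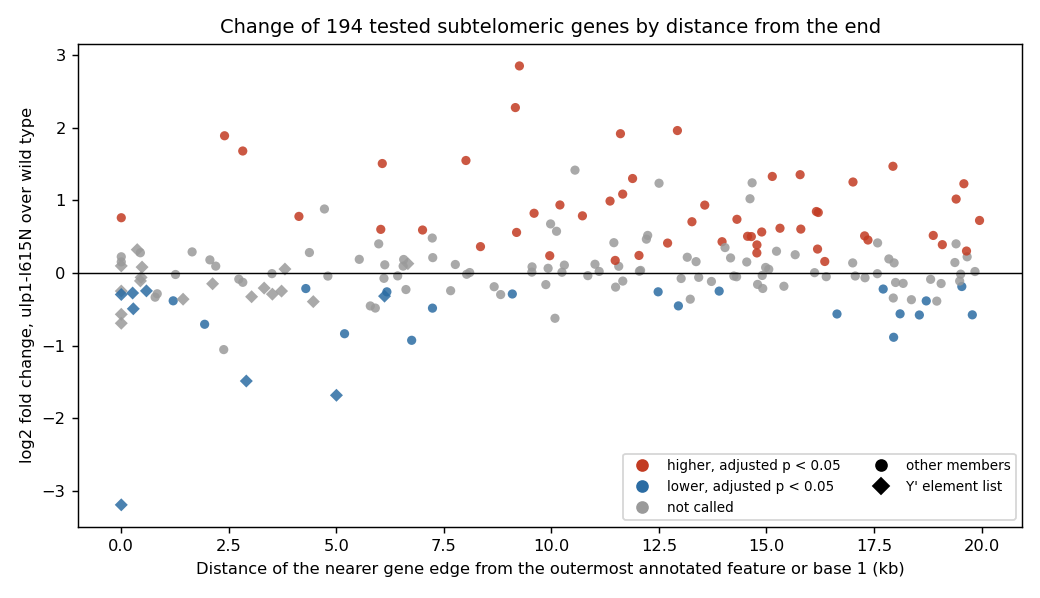
Each point is 1 of the 194 tested members. The x axis is the distance of the gene from the chromosome end in kb and the y axis the log2 fold change of ulp1-I615N over wild type, with red points higher, blue points lower and grey points not called (edgeR, adjusted p under 0.05) and diamonds for the list of Y' element genes. Most diamonds lie below 0 within the outer 7 kb, and most red points lie beyond 5 kb.

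The calls differed with distance from the end. Within 5 kb, 4 of 45 tested members were higher and 9 lower, with a median log2 fold change of -0.13. Leaving out the Y' element and PAU lists left 20 tested members there, 4 higher and 3 lower, with a median of 0.12. Between 5 and 10 kb, 10 of 41 were higher and 7 lower (median 0.084), and between 10 and 20 kb 37 of 108 were higher and 11 lower (median 0.16). Further in, over all features off chromosome X, 40 of 136 were higher and 23 lower at 20 to 30 kb (median 0.074), 67 of 292 were higher and 80 lower at 30 to 50 kb (median 0.0023), and 1114 of 5127 were higher and 1353 lower beyond 50 kb (median -0.020). These are descriptions, since genes are not replicates and no test compared the bins. The level rose in the same order, with a median wild-type level of 0.424 CPM per kb over members within 5 kb, 2.01 CPM per kb at 5 to 10 kb and 8.09 CPM per kb at 10 to 20 kb. So did the members' median share of 50-base windows that occur once in the genome, at 9.10%, 64.0% and 100%. Fragments with more than 1 place in the genome were not counted, so these levels are not a measure of expression alone. Whether the level or that share plays a part in the calls was not tested.

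**Figure D2:**
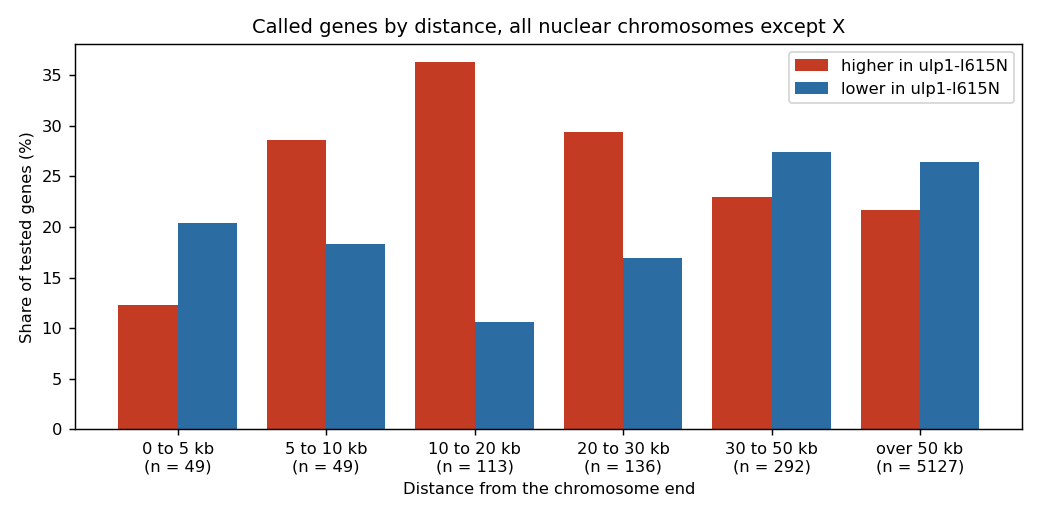
Bars give the share of tested genes, in percent, that were higher (red, left) or lower (blue, right) in ulp1-I615N in each range of distance from the end, over all features of the nuclear chromosomes except X, including the genes that the member rule leaves out. The share of higher genes is largest at 10 to 20 kb, at 36.3%, and the share of lower genes is smallest there, at 10.6%.

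Called members were spread over the ends. At least 1 higher member was found at 26 of the 30 ends, at least 1 lower member at 18 and both at 16. Over all genes tested 26.4% were higher and 24.3% lower, so a call at most ends is not particular to the ends. No test compared the ends with each other or with that background. The right end of chromosome III held the most rises, with 6 of its 10 tested members higher, among them ADH7 and PAU3, and 1 lower, AAD3. The left end of chromosome XII held the most falls, with 4 of its 5 tested members lower: MMP1, MHT1, YLL066C and YLL067C. The left end of chromosome I and the right end of chromosome IV had only a lower member, SEO1 and FDC1, and the right end of chromosome I and the left end of chromosome IX had no called member.

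**Figure D3:**
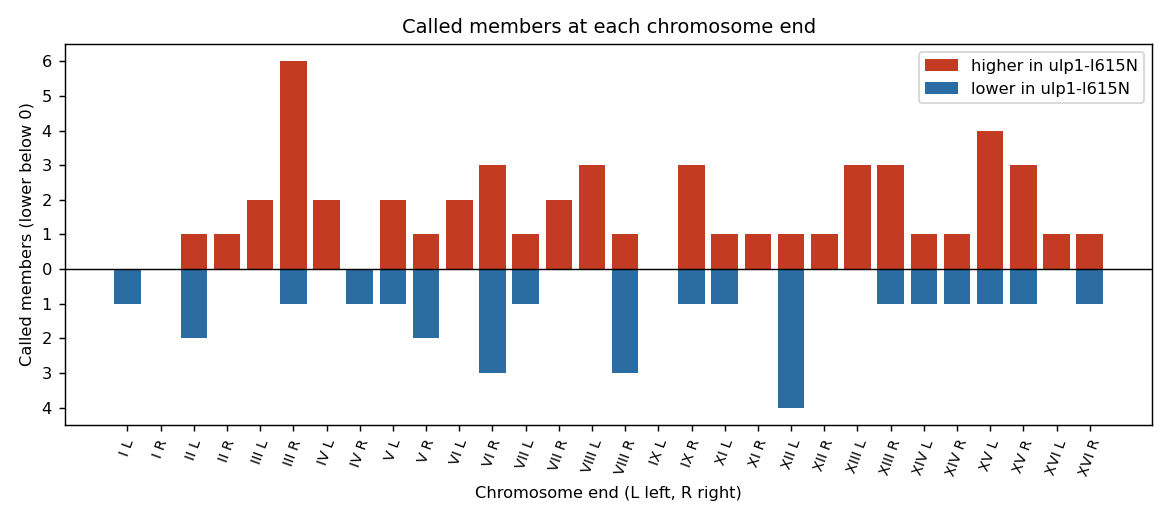
Bars above 0 count members called higher in ulp1-I615N and bars below 0 members called lower, at each chromosome end along the x axis. The right end of III has 6 higher and 1 lower, and the left end of XII has 1 higher and 4 lower.

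The sequence upstream of the members was searched for the stress response element AGGGG, the binding site of the stress activators Msn2 and Msn4, which was chosen, like the other motifs, with earlier results of these data known. Each window covered the 300 bases from 380 to 81 bases before the annotated start, read from RefSeq assembly R64, and both strands were searched, so CCCCT also counted. At least 1 match was found in 17 of 49 windows of higher members (34.7%), 4 of 25 of lower members (16.0%), 20 of 107 of members tested and not called (18.7%) and 15 of 52 of untested members (28.8%). Over all nuclear RefSeq genes 1400 of 6005 windows (23.3%) held one, and over all members 56 of 233 (24.0%). The Tbf1 site TTAGGG, which shares letters with AGGGG where a further G follows it, was in 8.15% of member windows and 7.99% of all windows. It too varied with the call, in 4 of 49 windows of higher members (8.16%) and 4 of 25 of lower members (16.0%). It was in 4 of 107 windows of members tested and not called (3.74%) and 7 of 52 of untested members (13.5%). The paired heat shock unit GAANNTTC was in 28 of 233 member windows and in 12.4% of all windows, and the Aft1 iron site TGCACCC in 1.72% and 1.40%. Near-identical copies share their windows, so these windows are not independent, and a match is a description of letters and not a site shown to act. The windows of 3 pairs are given here with the motif in capitals, 5′ to 3′ on the strand of the gene. HSP33 (chrXV:1079339-1079638, minus strand) and HSP32 (chrXVI:11507-11806, plus strand) are copies at different ends that were both higher. MSC1 (chrXIII:16757-17056, minus strand) and YPS6 (chrIX:432192-432491, minus strand) are rises of genes with larger counts. The window of RSC9, the neighbour of MSC1 on the other strand, overlaps that of MSC1. It also held 2 matches, and RSC9 was not called. THI5 (chrVI:12549-12848, plus strand) and THI13 (chrIV:15824-16123, plus strand) are copies of which 1 holds the motif and the other does not, while both were higher.
HSP33: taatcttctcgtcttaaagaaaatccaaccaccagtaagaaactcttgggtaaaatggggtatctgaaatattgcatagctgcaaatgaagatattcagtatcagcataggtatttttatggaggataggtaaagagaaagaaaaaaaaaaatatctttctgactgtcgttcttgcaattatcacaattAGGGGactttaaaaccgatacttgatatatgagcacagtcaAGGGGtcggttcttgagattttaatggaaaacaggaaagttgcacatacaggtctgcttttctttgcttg
HSP32: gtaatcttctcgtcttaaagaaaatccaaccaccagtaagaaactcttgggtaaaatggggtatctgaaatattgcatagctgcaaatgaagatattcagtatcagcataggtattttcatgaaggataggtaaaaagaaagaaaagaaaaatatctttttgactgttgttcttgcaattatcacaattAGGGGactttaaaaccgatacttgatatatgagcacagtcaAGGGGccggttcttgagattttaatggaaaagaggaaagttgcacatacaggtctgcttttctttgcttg
MSC1: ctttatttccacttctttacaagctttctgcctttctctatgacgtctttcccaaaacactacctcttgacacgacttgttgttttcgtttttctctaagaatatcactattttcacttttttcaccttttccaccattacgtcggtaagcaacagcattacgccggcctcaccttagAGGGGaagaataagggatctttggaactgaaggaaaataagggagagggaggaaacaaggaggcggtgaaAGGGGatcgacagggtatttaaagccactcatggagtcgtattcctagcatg
YPS6: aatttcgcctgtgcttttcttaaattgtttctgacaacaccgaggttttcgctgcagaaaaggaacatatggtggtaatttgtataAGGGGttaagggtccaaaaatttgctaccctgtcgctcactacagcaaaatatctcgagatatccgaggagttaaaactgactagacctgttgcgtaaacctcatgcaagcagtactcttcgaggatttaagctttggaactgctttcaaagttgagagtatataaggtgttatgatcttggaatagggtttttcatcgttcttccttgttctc
THI5: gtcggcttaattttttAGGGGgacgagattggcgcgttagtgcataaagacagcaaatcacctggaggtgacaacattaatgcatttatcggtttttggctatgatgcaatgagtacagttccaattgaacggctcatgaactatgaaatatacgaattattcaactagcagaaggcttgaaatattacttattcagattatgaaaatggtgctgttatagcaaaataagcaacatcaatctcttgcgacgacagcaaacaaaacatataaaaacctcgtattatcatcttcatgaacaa
THI13: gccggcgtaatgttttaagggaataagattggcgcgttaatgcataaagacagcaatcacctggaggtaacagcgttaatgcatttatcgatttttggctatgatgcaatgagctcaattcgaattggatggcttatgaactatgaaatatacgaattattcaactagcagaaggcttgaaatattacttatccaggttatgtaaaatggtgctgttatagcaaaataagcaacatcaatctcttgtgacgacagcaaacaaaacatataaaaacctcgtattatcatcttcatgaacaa

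The Hsp31-like and enolase-related genes had the highest median of the role lists, 1.59 on the log2 scale, with 3 of 4 tested members higher, 0 lower and 2 of the 6 members untested. Hsp31-like proteins belong to a family of stress-induced chaperones and cysteine hydrolases, and the ERR genes encode enolase-related proteins. HSP33 (YOR391C, chromosome XV, 1078545 to 1079258 of sacCer3) had 1.86 and 1.48 CPM in the ulp1-I615N libraries, against 0.399 and 0.441 CPM in the wild-type libraries. Its counts were only 26 and 41 in the mutant and 6 and 8 in wild type, and the groups did not overlap. HSP33 passed the low-count filter only through the mutant libraries, where it is high. The 3 of 4 and the median of the list therefore rest in part on that filter. The fold was 3.78, with a log2 fold change of 1.92 ± 0.47 (SE; edgeR adjusted p = 0.00354). HSP32, its copy on chromosome XVI, had 2.21 and 1.34 CPM in the mutant and 0.599 and 0.716 CPM in wild type (log2 fold change 1.30, edgeR adjusted p = 0.0258). ERR3 (YMR323W, chromosome XIII, 920088 to 921401), which lies 2401 bases from the right end, had 42 and 70 counts in the mutant, against 10 and 14 in wild type (3.70-fold higher after scaling, log2 fold change 1.89 ± 0.36, edgeR adjusted p = 0.000594). SNO4, with 21 and 56 counts in the mutant and 19 and 14 in wild type, was not called (0.88, edgeR adjusted p = 0.0733). The coding sequences of HSP32 and HSP33 were 99.4% identical and those of ERR1 and ERR3 99.1%, so only fragments over the few differing bases could be placed. All these genes had means under 50 counts. The windows of all 6 members of the list, SNO4 and the untested ERR1 and ERR2 included, each held 2 AGGGG matches.

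Of the vitamin B1 and B6 genes 4 of 6 tested members were higher and 0 lower, with a median of 0.77. They are the THI5 family, which makes the pyrimidine part of thiamine, and the SNZ and SNO genes, which encode the synthase and glutaminase subunits for pyridoxal phosphate and lie beside THI genes at the ends. THI5 (YFL058W, chromosome VI, 12929 to 13951) had 3.78 and 4.69 CPM in the ulp1-I615N libraries, against 1.26 and 0.992 CPM in wild type. Both mutant values lay above both wild-type values, and the fold was 3.89 (log2 fold change 1.96 ± 0.30, edgeR adjusted p = 8.73e-05). THI13 had 5.78 and 5.13 CPM in the mutant and 2.93 and 3.08 CPM in wild type (0.83, edgeR adjusted p = 0.00596). THI12, with 1 and 6 counts in the mutant and 5 and 2 in wild type, was not tested. SNZ3 (YFL059W), the neighbour of THI5, had 28.6 and 32.2 CPM in the mutant, against 13.6 and 17.1 CPM in wild type (0.99 ± 0.12, edgeR adjusted p = 1.22e-05), and SNZ2 was at 0.71 (edgeR adjusted p = 0.00618). SNO2 and SNO3 were at 0.47 and 0.11 and were not called (edgeR adjusted p = 0.0678 and adjusted p = 0.709). Coding identity was 99.3% between THI5 and THI12, 98.1% between THI5 and THI13 and 99.3% between SNZ2 and SNZ3, so their counts rest on the bases that differ.

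Redox and small-molecule enzyme genes had 6 of 9 members higher and 1 lower, with a median of 0.51. Unlike the families above, most of these genes consist of sequence found once in the genome and had larger counts. FDH1 (YOR388C, chromosome XV), a formate dehydrogenase gene, had 6.71 and 6.79 CPM in ulp1-I615N, against 2.13 and 2.70 CPM in wild type (log2 fold change 1.47 ± 0.22, edgeR adjusted p = 8.06e-05). Its counterpart FDH2, which overlaps another feature, was at -0.37 and was not called (edgeR adjusted p = 0.233), and 15.8% of the 50-base windows of FDH1 and 15.7% of those of FDH2 occur once in the genome. YML131W, which encodes an oxidoreductase-like protein, had 51.4 and 51.9 CPM in the mutant, against 27.2 and 26.9 CPM in wild type (0.94 ± 0.09, edgeR adjusted p = 6.68e-07). YMR315W, an NADPH-producing oxidoreductase gene, was at 163 and 171 CPM in the mutant and 99.3 and 103 CPM in wild type (0.72, edgeR adjusted p = 4.18e-07). HYR1, the gene of a peroxidase that senses hydrogen peroxide, was at 133 and 140 CPM in the mutant and 94.0 and 98.7 CPM in wild type (0.51, edgeR adjusted p = 1.75e-05). In each of these called genes both mutant values lay above both wild-type values. IRC24 and SRY1 were also higher, at 0.62 and 0.45. IRC7, the gene of a thiol-releasing lyase, was lower at -0.21 (edgeR adjusted p = 0.0194), and overlaps another feature. Without mutant replicate 2, or with library totals only, 0 genes of the list were lower. Neither the YML131W nor the FDH1 window held an AGGGG match.

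**Figure D4:**
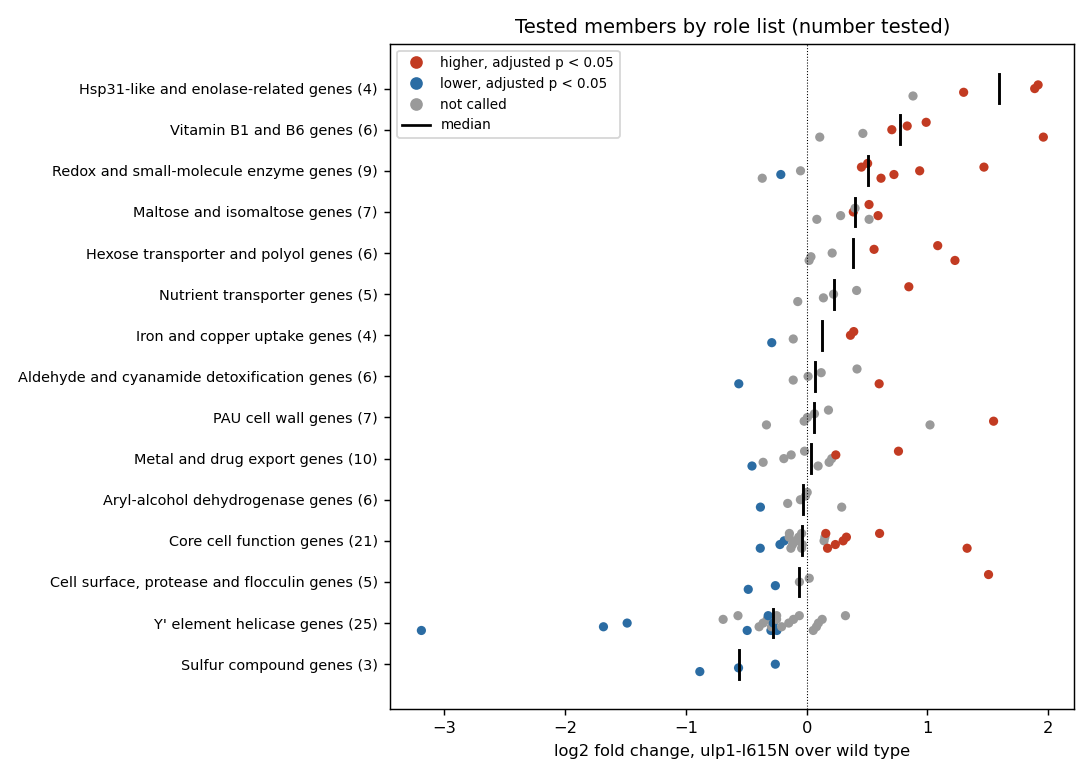
Each point is a tested member, placed by its log2 fold change of ulp1-I615N over wild type on the x axis, in role lists along the y axis with the number tested in brackets; black ticks are medians, and colours give the edgeR calls. Medians run from 1.59 for the Hsp31-like and enolase-related list to -0.56 for the sulfur compound list. The first of these rests on 4 tested genes with means under 50 counts, and HSP33 was tested only through the mutant libraries.

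Sugar genes moved upward where they moved. Of 7 tested maltose and isomaltose genes 3 were higher and 0 lower (median 0.40). MAL31, a maltose permease gene, had 22.5 and 25.0 CPM in ulp1-I615N, against 15.2 and 16.4 CPM in wild type (log2 fold change 0.59 ± 0.11, edgeR adjusted p = 0.000602). MAL13, a transcription activator gene of the maltose system, was at 0.52 (edgeR adjusted p = 0.00415), and the permease gene MAL11 at 0.39 (edgeR adjusted p = 0.0243). The maltase genes MAL12 and MAL32, 99.5% identical in coding sequence, were at 0.52 and 0.28 and were not called (edgeR adjusted p = 0.087 and adjusted p = 0.295). Of 6 tested hexose transporter and polyol genes 3 were higher and 0 lower (median 0.38). DSF1, a mannitol dehydrogenase-like gene, had 5.36 and 5.16 CPM in the mutant, against 2.26 and 2.20 CPM in wild type (1.23 ± 0.23, edgeR adjusted p = 0.000553). MAN2, 98.9% identical to DSF1 in coding sequence, was not called, and 41.5% of the 50-base windows of DSF1 occur once in the genome. HXT15, of the hexose transporter family, had 8.71 and 7.44 CPM in the mutant, against 3.33 and 4.08 CPM in wild type (1.09 ± 0.20, edgeR adjusted p = 0.000484). In HXT15 5.80% of 50-base windows occur once in the genome. HXT17, the member compared with it, was 88.1% identical in coding sequence, and copies outside the members were not compared. Whether any copy on the raised chromosome X adds to the counts of HXT15 was not tested.

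Genes of other transport and uptake systems were mixed. Among the 5 nutrient transporter genes PUG1, which encodes a protein of protoporphyrin and heme transport, was higher, with 7.14 and 7.08 CPM in ulp1-I615N, against 3.86 and 4.02 CPM in wild type (log2 fold change 0.85 ± 0.19, edgeR adjusted p = 0.00221), and 4 were not called (median of the list 0.22; 2 were higher without wild type replicate 2 or with the replicate block, and 3 with library totals only). Of 4 iron and copper uptake genes 2 were higher and 1 lower (median 0.13). The siderophore transporter genes ARN1 and ARN2 were at 0.39 and 0.36 (edgeR adjusted p = 0.00433 and adjusted p = 0.000993), and ARN2 overlaps another feature. The third siderophore transporter gene, ENB1, was at -0.11 and was not called (edgeR adjusted p = 0.239), while FRE2, a ferric reductase gene, was lower at -0.29 (edgeR adjusted p = 0.0273). That call was lost with DESeq2, with library totals only and without either mutant library. Of 10 tested metal and drug export genes 2 were higher and 1 lower (median 0.039). The glutathione exchanger gene GEX2 had 13.6 and 15.8 CPM in the mutant, against 8.46 and 9.09 CPM in wild type (0.76 ± 0.15, edgeR adjusted p = 0.000581). GEX1, 99.0% identical to GEX2 in coding sequence, was not tested. The multidrug exporter gene SGE1, which overlaps another feature, was higher at 0.24 (edgeR adjusted p = 0.0259). Without mutant replicate 1 or without wild type replicate 2, 1 gene of the list was higher in place of 2, and without mutant replicate 1, without wild type replicate 1 or with the replicate block, 2 were lower in place of 1. The fluoride exporter gene FEX1 had 15.5 and 16.1 CPM in the mutant, against 21.6 and 21.7 CPM in wild type (-0.45 ± 0.11, edgeR adjusted p = 0.00356). FEX2, 99.3% identical to it, was at -0.36 and was not called (edgeR adjusted p = 0.071).

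All 3 genes of the sulfur compound list were lower, with a median of -0.56. The list leaves out the sulfate permease gene SUL1, which is in the nutrient transporter list. SUL1 was at 0.22 and was not called (edgeR adjusted p = 0.0773), with both mutant values above both wild-type values. MMP1 and MHT1 are neighbours on the left end of chromosome XII and encode the S-methylmethionine permease and the methyltransferase that uses S-methylmethionine to make methionine. MMP1 (YLL061W, 17956 to 19707) had 61.1 and 59.3 CPM in ulp1-I615N, against 106 and 115 CPM in wild type. The fall was 1.85-fold, with a log2 fold change of -0.88 ± 0.07 (edgeR adjusted p = 1.84e-07). MHT1 (YLL062C) had 37.2 and 33.5 CPM in the mutant, against 58.3 and 45.9 CPM in wild type (-0.56 ± 0.11, edgeR adjusted p = 0.00138). BDS1, a sulfatase gene on chromosome XV, was at -0.26 (edgeR adjusted p = 0.0243). In all 3 the groups did not overlap, and all their 50-base windows occur once in the genome.

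Aldehyde, aryl-alcohol and cell surface genes gave few calls, in both directions. Of 6 aldehyde and cyanamide detoxification genes 1 was higher and 1 lower (median 0.066). FDC1, the phenylacrylic acid decarboxylase gene, had 62.9 and 60.5 CPM in ulp1-I615N, against 93.0 and 89.0 CPM in wild type (log2 fold change -0.56 ± 0.07, edgeR adjusted p = 1.19e-05). ADH7, an NADPH-dependent alcohol dehydrogenase gene, was at 18.6 and 14.4 CPM in the mutant and 8.12 and 12.8 CPM in wild type (0.60 ± 0.20, edgeR adjusted p = 0.027), and the call was lost without wild type replicate 1 (0.31, edgeR adjusted p = 0.118). Its relative ADH6, far more abundant, was at -0.11 and was not called (edgeR adjusted p = 0.156). Of 6 aryl-alcohol dehydrogenase genes only AAD3 was called, lower at -0.38 (edgeR adjusted p = 0.0029; median of the list -0.031), and with library totals as the only scaling it was not (edgeR adjusted p = 0.0516). Of 5 tested genes in the cell surface, protease and flocculin list 1 was higher and 2 were lower (median -0.060). YPS6, a gene of the yapsin family of cell surface aspartyl proteases (YIR039C, chromosome IX, 430498 to 432111), had 23.6 and 20.9 CPM in the mutant, against 7.99 and 7.55 CPM in wild type. Its fold was 2.84 (1.51 ± 0.14, edgeR adjusted p = 5.59e-07). MNT2, a mannosyltransferase gene, was lower at -0.26 (edgeR adjusted p = 0.00477). SEO1, a putative permease gene, was lower at -0.48 (edgeR adjusted p = 0.0304), and the call was lost without mutant replicate 1 (-0.34, edgeR adjusted p = 0.165), without wild type replicate 1 (-0.43, edgeR adjusted p = 0.0824), with DESeq2 and with library totals only.

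The PAU genes, a family of cell wall mannoprotein genes, could hardly be measured. In 17 of their 18 members under 50% of 50-base windows occur once in the genome, and 7 were tested, 1 of them higher (median 0.065). PAU3 had 0.928 and 1.01 CPM in ulp1-I615N, against 0.399 and 0.275 CPM in wild type (log2 fold change 1.55 ± 0.56, edgeR adjusted p = 0.0314). It passed the low-count filter only through the mutant libraries, where it is high. Its counts were 13 and 28 in the mutant and 6 and 5 in wild type, and the call was lost with DESeq2 (adjusted p = 0.132) and with any 1 of the 4 libraries left out (edgeR adjusted p = 0.0541 to 0.204). The summed level of the family was 14.7 and 16.3 CPM in the mutant, against 13.2 and 13.1 CPM in wild type.

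The Y' element list holds the helicase genes and short reading frames in or beside these repeats. Of its 40 members 25 were tested, 0 were higher and 8 were lower, with a median of -0.28. Its summed level was 231 and 232 CPM in the ulp1-I615N libraries, against 278 and 294 CPM in wild type, and the groups did not overlap. YHR219W (chromosome VIII, 560173 to 562047) had 0.857 and 0.794 CPM in the mutant, against 8.59 and 6.56 CPM in wild type. Its counts were 12 and 22 in the mutant and 129 and 119 in wild type, a 9.13-fold fall (log2 fold change -3.19 ± 0.29, edgeR adjusted p = 5.51e-07), and it overlaps 2 other features. YER189W had 5 and 14 counts in the mutant, against 18 and 31 in wild type (-1.68 ± 0.47, edgeR adjusted p = 0.00842), and the call was lost without wild type replicate 2 (-1.38, edgeR adjusted p = 0.0768). YBL113C, with larger counts of 419 and 918 in the mutant and 665 and 817 in wild type, was lower at -0.49 (edgeR adjusted p = 0.000382), and overlaps 2 other features. YBL111C had 4 and 26 counts in the mutant, against 25 and 42 in wild type (-1.49, edgeR adjusted p = 0.0117). YER189W passed the low-count filter only through the wild-type libraries, and YBL111C would not have passed it on the mutant libraries alone. The tested YRF1 helicase genes were between -0.69 and 0.32, and none was called. Of 7 other members that RefSeq annotates as Y' element helicases, 3 were not called and 4 were lower, by less than YHR219W and YER189W and with larger counts: YEL077C at -0.28, YLL066C at -0.32, YLL067C at -0.25 and YPR204W at -0.30 (edgeR adjusted p = 0.0147 for YEL077C, 0.021 for YLL066C, 0.0445 for YLL067C and 0.0396 for YPR204W). The median share of 50-base windows that occur once was 0.797% over the list, so a count can come from any copy that differs at a few bases. The number of lower members was also sensitive to single libraries and to scaling: it was 4 with library totals only, 5 without mutant replicate 1, 5 without mutant replicate 2 and 4, with 1 higher, without wild type replicate 2.

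The silent mating type locus gave almost no reads. The 4 HML members had 1 count in all over the mutant libraries and 1 over the wild-type libraries, but HMLALPHA1 and HMLALPHA2 have no 50-base window that occurs once, since the same sequence is found at other mating type loci, and fragments from them could not be counted. The genes of the silencing machinery, which lie elsewhere in the genome, were lower in part: of 26 tested genes 11 were lower and 1 was higher (median -0.15), against the background of 24.3% lower. RAP1, whose protein binds telomere repeats, had 106 and 108 CPM in ulp1-I615N, against 141 and 147 CPM in wild type (log2 fold change -0.42 ± 0.06, edgeR adjusted p = 6.54e-05). DOT1, the histone H3 methyltransferase gene, and SIR2, the histone deacetylase gene, were each at -0.41 (edgeR adjusted p = 0.000302 and adjusted p = 0.00102). The other SIR genes of the list were not called. SIR1 was at 0.15, SIR3 at 0.0032 and SIR4 at -0.12 (edgeR adjusted p = 0.22 for SIR1, 0.98 for SIR3 and 0.204 for SIR4). The higher gene was YKU70, of the Ku complex at telomeres, at 0.39 (edgeR adjusted p = 0.00356), named after its value was seen. With library totals only, 4 of the list were lower and 3 higher, and without mutant replicate 2 there were 6 lower. Of 12 tested telomere maintenance genes 1 was higher, RAD50 at 0.22 (edgeR adjusted p = 0.0453), and 0 were lower (median 0.019). RAD50 was not called with RLE factors, TMMwsp, DESeq2 or any 1 library left out. RRM3 at -0.19 and XRS2 at 0.18 were not called (edgeR adjusted p = 0.0687 and adjusted p = 0.21), though RRM3 passed without wild type replicate 1 (-0.24, edgeR adjusted p = 0.0242), without mutant replicate 2 (-0.30, edgeR adjusted p = 0.0145) and with the replicate block (-0.19, edgeR adjusted p = 0.023), and XRS2 passed with library totals only (0.31, edgeR adjusted p = 0.0341). The mutated gene ULP1 was at 0.12 (edgeR adjusted p = 0.197), and passed with library totals only (0.26, edgeR adjusted p = 0.0248).

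**Figure D5:**
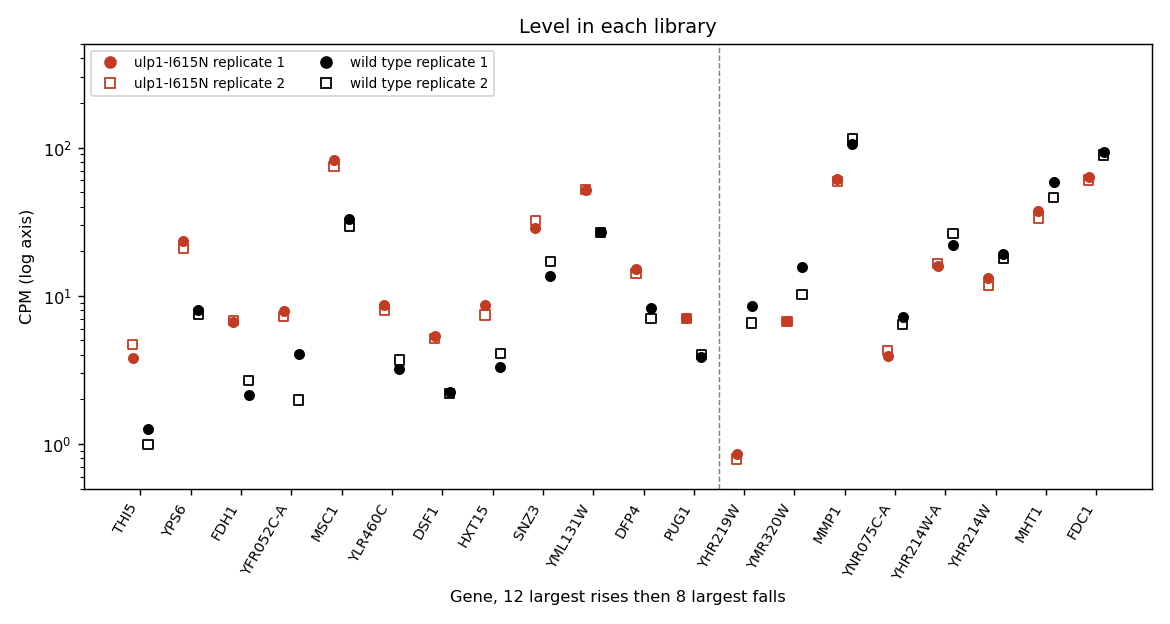
CPM on a log axis in each library (circles replicate 1, squares replicate 2; ulp1-I615N in red at left and wild type in black at right of each gene) for the 12 largest rises and, after the dashed line, the 8 largest falls among called members with a mean of at least 50 counts and groups that do not overlap, so the gap between the groups follows from the choice of genes. Mutant levels run from YHR219W, at 0.857 and 0.794 CPM, to MSC1, at 82.5 and 74.3 CPM.

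In the list labelled core cell functions 10 of 21 genes were called (47.6%), against 50.6% of all genes tested. The label is broad, and the list also holds CHA1, DLD3, RMD6 and MSC1. Of the 21, 7 were higher and 3 lower (median -0.041), and without mutant replicate 1, 4 were higher and 1 lower. With DESeq2 4 were also higher. MSC1 (YML128C, chromosome XIII, 15135 to 16676), a gene named for a screen on meiotic sister-chromatid recombination, had 82.5 and 74.3 CPM in ulp1-I615N, against 33.0 and 29.4 CPM in wild type. It rose 2.51-fold, with a log2 fold change of 1.33 ± 0.09 (edgeR adjusted p = 3.37e-08). CHA1, the gene of the serine and threonine deaminase, had 175 and 174 CPM in the mutant, against 121 and 108 CPM in wild type (0.60 ± 0.07, edgeR adjusted p = 4.42e-06). The proteasome genes PRE4 and RPN12 were at 0.30 and 0.33 (edgeR adjusted p = 0.000811 and adjusted p = 0.000589). MGA2, the activator gene of fatty acid desaturation, was lower at -0.38 (edgeR adjusted p = 0.00391). By level per length the most abundant members were ERG13, of sterol synthesis, at 626 CPM per kb in the mutant and 692 CPM per kb in wild type, ADH6, at 323 CPM per kb in the mutant and 349 CPM per kb in wild type, and PRE4, at 369 CPM per kb in the mutant and 300 CPM per kb in wild type. HYR1 had 278 in the mutant and 196 in wild type, and DLD3, a lactate dehydrogenase gene, 208 in the mutant and 186 in wild type. ERG13 was not called (log2 fold change -0.14, edgeR adjusted p = 0.113), but passed with the replicate block (-0.14, edgeR adjusted p = 0.0149). DLD3 was called at 0.16 (edgeR adjusted p = 0.0409) but not with any 1 library left out (edgeR adjusted p = 0.0691 to 0.184).

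Members in no role list, most of them without a known role, had 17 of 70 tested higher and 6 lower (median 0.13). YFR052C-A had 7.85 and 7.29 CPM in ulp1-I615N, against 4.06 and 1.98 CPM in wild type (log2 fold change 1.35 ± 0.26, edgeR adjusted p = 0.00071). It has no RefSeq match and overlaps YFR053C, a gene that the member rule leaves out. Whether its counts come from transcripts of YFR053C was not tested. YLR460C had 8.64 and 8.02 CPM in the mutant, against 3.20 and 3.69 CPM in wild type (1.25 ± 0.20, edgeR adjusted p = 0.000112). DFP4 had 15.1 and 14.2 CPM in the mutant, against 8.26 and 7.05 CPM in wild type (0.93 ± 0.15, edgeR adjusted p = 0.000124). Of the falls outside the role lists at a mean of at least 50 counts, YMR320W had 6.78 and 6.72 CPM in the mutant, against 15.7 and 10.2 CPM in wild type (-0.93 ± 0.20, edgeR adjusted p = 0.00197). YNR075C-A was at -0.71 (edgeR adjusted p = 0.00789), and the repeated neighbours YHR214W-A and YHR214W were each at -0.58 (edgeR adjusted p = 0.001 and adjusted p = 0.00173). Below that mean YFR056C, which overlaps another feature, was lower at -0.84 (edgeR adjusted p = 0.0497). LYS1, which both strains carry disrupted, is a member and had 4 and 5 counts in the mutant libraries and 4 and 5 in the wild-type libraries.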

How the data were processed

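RNA was prepared from 2 ulp1-I615N and 2 wild-type samples with polyA selection and a directional kit, per the labels. The values are unnormalised fragment counts that the authors obtained with featureCounts, run on read pairs without strand, multi-mapping or overlap options, per the file headers. Fragments that map to several places or lie over more than 1 gene were therefore not counted, and a gene cannot be told from an overlapping or antisense one. The build sacCer3, Subread 2.0.0 and HISAT2 2.1.0 are named in the submitters' processing notes. Which annotation version was used is not stated in the sources at hand. Depth is given with the report's opening.

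The main test was edgeR 4.0.16 in R 4.3.3 on the counts of all genes: TMM, default low-count filter (minimum count 10, total 15), robust quasi-likelihood F test without a replicate block, Benjamini-Hochberg adjustment, threshold 0.05. The table of 7126 features gave 6139 tested genes, and the biological coefficient of variation was 0.0572. A gene with few counts could pass the filter through the libraries of 1 group alone. CPM uses TMM-scaled totals, and standard errors come from the F statistics. Replicates differed by more than sampling noise (chi-square per degree of freedom 8.83 in the mutant and 9.72 in wild type) and were kept separate. The code was tested on simulated data. Alternatives were other scalings and filters, DESeq2 1.42.0, limma-voom (limma 3.58.1), a fold threshold of 1.2, the replicate block, leaving out each library, other distances, and members without overlaps or repeats. The share of 50-base windows found once was computed on R64.

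Members and lists were chosen with earlier results of these data known. Named are the 12 largest rises and 8 largest falls among called members with a mean of at least 50 counts and groups that do not overlap, the 2 largest called changes per role list (or the smallest p), the 3 smallest p in each of the telomere silencing and telomere maintenance lists, ULP1 and the 5 members with the highest level per length. Other genes are named to complete a list or a family, after their values were seen.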

Additional observations from a re-analysis of the deposited data

How the results depend on the processing

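Counts of 51 members higher and 27 lower and the median of 0.083 were recomputed under each alternative. Library totals as the only scaling gave 65 higher, 13 lower and a median of 0.21. Without a filter the median was 0.15, and a test against a fold of 1.2 left 30 higher and 11 lower. DESeq2 gave 35 higher and 20 lower. Within 10 kb of the end 14 members were higher and 16 lower with a median of -0.030, and within 30 kb 91 were higher and 50 lower. The median was 0.11 without overlapping members and 0.14 without the Y' element and PAU lists. Members with at least 90% of windows found once, a choice made after seeing the data, gave 33 higher, 15 lower and a median of 0.14. Leaving out 1 library gave 41 to 48 higher, 19 to 25 lower and medians of 0.084 to 0.135 (the highest without wild type replicate 2), with the spread of the lone library taken from the other group. The cause of these shifts was not tested, except that fewer or more members enter at other distances and without lists. The replicate numbers were not taken as pairs: with 2 pairs, the deviations of same-numbered libraries correlated at 0.13 over 5732 genes, and the replicate block gave 53 higher, 31 lower and a median of 0.093. Of 46 named genes, 29 kept direction and call under all 13 alternatives tried for them. ADH6, not called, turned to 0.021 with library totals only. With few counts at most members, small changes there were not detectable at this depth.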

Other observations

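Several called rises lay under the mean of 50 counts that the naming rule asks for, the largest among all members, YCR102W-A and YGL258W-A, included. The genes that follow were named after their values were seen. YCR102W-A, on the right end of chromosome III, had 16 and 31 counts in ulp1-I615N, against 2 and 3 in wild type (log2 fold change 2.85 ± 0.64, edgeR adjusted p = 0.00192). YGL258W-A, on the left end of chromosome VII, had 30 and 75 counts in the mutant, against 7 and 10 in wild type (2.28 ± 0.41, edgeR adjusted p = 0.000317). YCL074W, on the left end of chromosome III, had 26 and 51 counts in the mutant, against 6 and 13 in wild type (1.68 ± 0.43, edgeR adjusted p = 0.00455). In each of the 3 genes the groups did not overlap, no other feature overlaps the gene and all 50-base windows occur once in the genome. YCR102W-A and YGL258W-A passed the low-count filter only through the mutant libraries, where they are high. YCL074W would not have passed it on the wild-type libraries alone. A gene as low in wild type as YCR102W-A or YGL258W-A could be tested only if it was higher in the mutant, so it could be called only as a rise. YHR214C-B, a Ty retrotransposon reading frame on the right end of chromosome VIII, had 70.9 and 53.3 CPM in the mutant, against 46.3 and 46.1 CPM in wild type (0.41 ± 0.12, edgeR adjusted p = 0.0134), but 1.93% of its windows occur once, so its counts rest on few bases that differ between copies. AYT1, an acetyltransferase gene, was the only higher member at the left end of chromosome XII, at 0.50 (edgeR adjusted p = 0.00356), beside the falls of MMP1 and MHT1.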
